A study of Mus musculus with 12 samples.

Results

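The genes described here are imprinted genes of the mouse that lie outside the Mest locus. They were taken from a list of 40 symbols of well-known imprinted genes, grouped by the parental allele that is expressed and by imprinted cluster. A row with the same symbol was found for 39 of the 40, among 38986 genes, and Zrsr1 was not analysed here. The RNA came from teratomas that R1 mouse embryonic stem (ES) cells formed under the skin of immunodeficient mice, with 3 teratomas in each of 4 groups and 1 library per teratoma. All groups were R1 cells grown in serum with leukaemia inhibitory factor (FBS-LIF) and carried the lentiviral vector pEZ-LV235 with its CAG promoter. ET carried the empty vector and WT carried wild-type Dnmt3L. By their labels, K238R and K412R carried Dnmt3L with the lysine at that position replaced by arginine, so that it cannot be acetylated there. Dnmt3L is a protein without catalytic activity that stimulates the de novo DNA methyltransferases. The hosts were 8-week-old male NOD-PrkdcEM1 mice, and the tumours were taken at day 21. Each group came from a stably transduced line, so an effect of the construct and a difference between lines cannot be told apart. Host vessels and stroma are of mouse too, and their reads cannot be separated from those of the tumour.

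At an imprinted gene the copy inherited from one parent is silent, because DNA methylation set in the egg or sperm at a control region is kept through development. Dnmt3L is needed in the germ line to set such marks, and several imprinted genes act on fetal growth, placenta and brain. In cultured ES cells these marks are known to be lost or gained over passages. The counts used here add up both parental copies and carry no methylation reading, so a level says nothing about which copy was transcribed.

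H19, the only one of these genes called in a comparison of groups, lies next to Igf2 on chromosome 7. Both host a microRNA, so the mature sequences that their transcripts carry are shown, from RefSeq on the build GRCm38.p6. The seed, bases 2 to 8, is in capitals. The host transcripts were counted here, and the mature microRNAs were not.
mmu-miR-675-5p (host H19, chr7:142577112-142577133, minus strand): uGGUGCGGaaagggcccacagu
mmu-miR-675-3p (host H19, chr7:142577078-142577099, minus strand): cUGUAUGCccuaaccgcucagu
mmu-miR-483-5p (host Igf2, chr7:142654968-142654989, minus strand): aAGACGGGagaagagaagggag
mmu-miR-483-3p (host Igf2, chr7:142654932-142654952, minus strand): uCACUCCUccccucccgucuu
The 4 seeds differ from each other.

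Peg3 and Usp29 start next to each other on chromosome 7 and run in opposite directions, and in WT against ET their log2 fold changes had opposite signs (-0.42 and 0.44), neither being called. The 163 bases between their RefSeq starts, chr7:6730420-6730582 on the plus strand of GRCm38.p6, hold 5 CG dinucleotides, the bases at which methylation can be set, shown in capitals.
Peg3 to Usp29: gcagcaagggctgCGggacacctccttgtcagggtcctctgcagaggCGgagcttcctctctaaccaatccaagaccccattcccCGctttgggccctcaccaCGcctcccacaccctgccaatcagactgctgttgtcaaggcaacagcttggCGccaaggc
Zdbf2, whose libraries in WT all lay above those in ET, is shown for the hexamer TGCCGC, which the zinc finger protein ZFP57 reads when it is methylated and through which it holds imprints in the early embryo. The 250 bases upstream of its start, chr1:63200108-63200357 on the plus strand of GRCm38.p6, hold the hexamer or its reverse complement GCGGCA at 3 places, in capitals.
Zdbf2 upstream: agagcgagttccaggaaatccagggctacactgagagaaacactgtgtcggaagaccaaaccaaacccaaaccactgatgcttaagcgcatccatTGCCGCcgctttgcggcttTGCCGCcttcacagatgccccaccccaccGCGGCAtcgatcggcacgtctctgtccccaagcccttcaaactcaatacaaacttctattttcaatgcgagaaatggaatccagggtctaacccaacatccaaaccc
RefSeq windows of this length were found for 31 of the 39 genes, as 46 windows, and 5 of the 46 (10.9%) held the hexamer on either strand, against 2850 of 32851 windows of all genes (8.68%). The 5 belong to Zdbf2, Calcr, Zim1, Plagl1 and Meg3. A match is a run of letters and not a binding site.

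Each library held between 16957677 and 18546100 counts, and levels are given as CPM, counts per 1000000 counts of the library. Dnmt3l, read to check the labels, stood at 39, 11 and 137 counts (ET), 2941, 3643 and 3581 (WT), 35, 20 and 10 (labelled K238R) and 699, 677 and 463 (K412R). Since the K238R-labelled tumours did not exceed the empty vector in this transcript, they are named by their label throughout. Libraries of a group were not always close. Over the 39 imprinted genes, ET replicate 2 lay nearest to WT replicate 1, and its mean distance to the other ET libraries (0.666, root mean square difference of log2 CPM) was the largest of the 12. WT replicate 1 lay nearest to ET replicate 2, and in all 7 of 12 libraries were nearest to a library of their own group. Over the 500 most variable genes 5 of 12 were, and there too ET replicate 2 and WT replicate 1 were nearest to each other. The calls in WT against ET are therefore given with and without each of these libraries.

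Differences between groups were tested with edgeR's quasi-likelihood test, with all 12 libraries in the fit and a mean for each group, and p-values were adjusted by the Benjamini-Hochberg method over the 18405 genes that passed the filter on low counts. All 39 genes passed it. A gene is called at an adjusted p under 0.05, and a log2 fold change is given as its value ± its standard error. As nothing says that the 3 teratomas of a group were grown from separate cell cultures, the p-values measure the spread between these tumours.

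Across the 39 genes, H19 was the only one called in any of the 6 comparisons of groups, and only between K412R and WT, where it rose. In K412R against WT, 1 of 39 was therefore called, against 2.04% of all genes tested in either direction and 1.34% higher. No member was called in WT against ET (background 0.0489%) or in the libraries labelled K238R against WT (background 0.223%). The same edgeR fit gave 15, 9 and 15 of the 39 an unadjusted p under 0.05 in WT against ET, K238R-labelled against WT and K412R against WT. The shares of all genes at that level were 29.1%, 17.5% and 22.8%. With DESeq2's test in place of edgeR's, 6 members were called in WT against ET, 3 in K238R-labelled against WT and 5 in K412R against WT, where it called 11.5%, 4.1% and 9.1% of all genes. Over all 4 groups together no member was called (background 0.168%), while 14 had an unadjusted p under 0.05 (background 22.2%) and DESeq2 called 8 (background 10.6%).

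The number called in WT against ET changed most when ET replicate 2 was left out. Without it, 18 of the 39 were called, 14 higher and 4 lower in WT, against 30.8% of all genes tested in that fit. The 4 lower were H19, Magel2, Peg12 and Peg3, at log2 fold changes of -1.61, -0.38, -1.60 and -0.47. The 14 higher were Calcr, Dlk1, Gnas, Igf2, Inpp5f, Kcnk9, Meg3, Ndn, Nnat, Rasgrf1, Rtl1, Trappc9, Usp29 and Zdbf2, at log2 fold changes between 0.38 (Trappc9) and 1.63 (Rasgrf1). Gnas stood at 0.39 against 0.25 with all libraries, and Dlk1 at 0.95 against 0.60. ET replicate 2 stood out over these same 39 genes, where its nearest library was one of WT. Leaving it out therefore tends to widen the difference between WT and ET. The calls made without it, here and below, show this dependence and are no separate support. Without WT replicate 1, 4 were called (H19 lower, Inpp5f, Nnat and Zdbf2 higher), against 6.97% of all genes, at log2 fold changes of -1.41, 0.97, 0.68 and 0.67. With all 12 libraries, those of WT and ET did not overlap for 6 of the 39 genes, against 20.8% of all genes: Inpp5f and Zdbf2 were higher in WT (background 9.41%), and Grb10, H19, Peg10 and Peg3 were lower (11.4%).

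**Figure D1:**
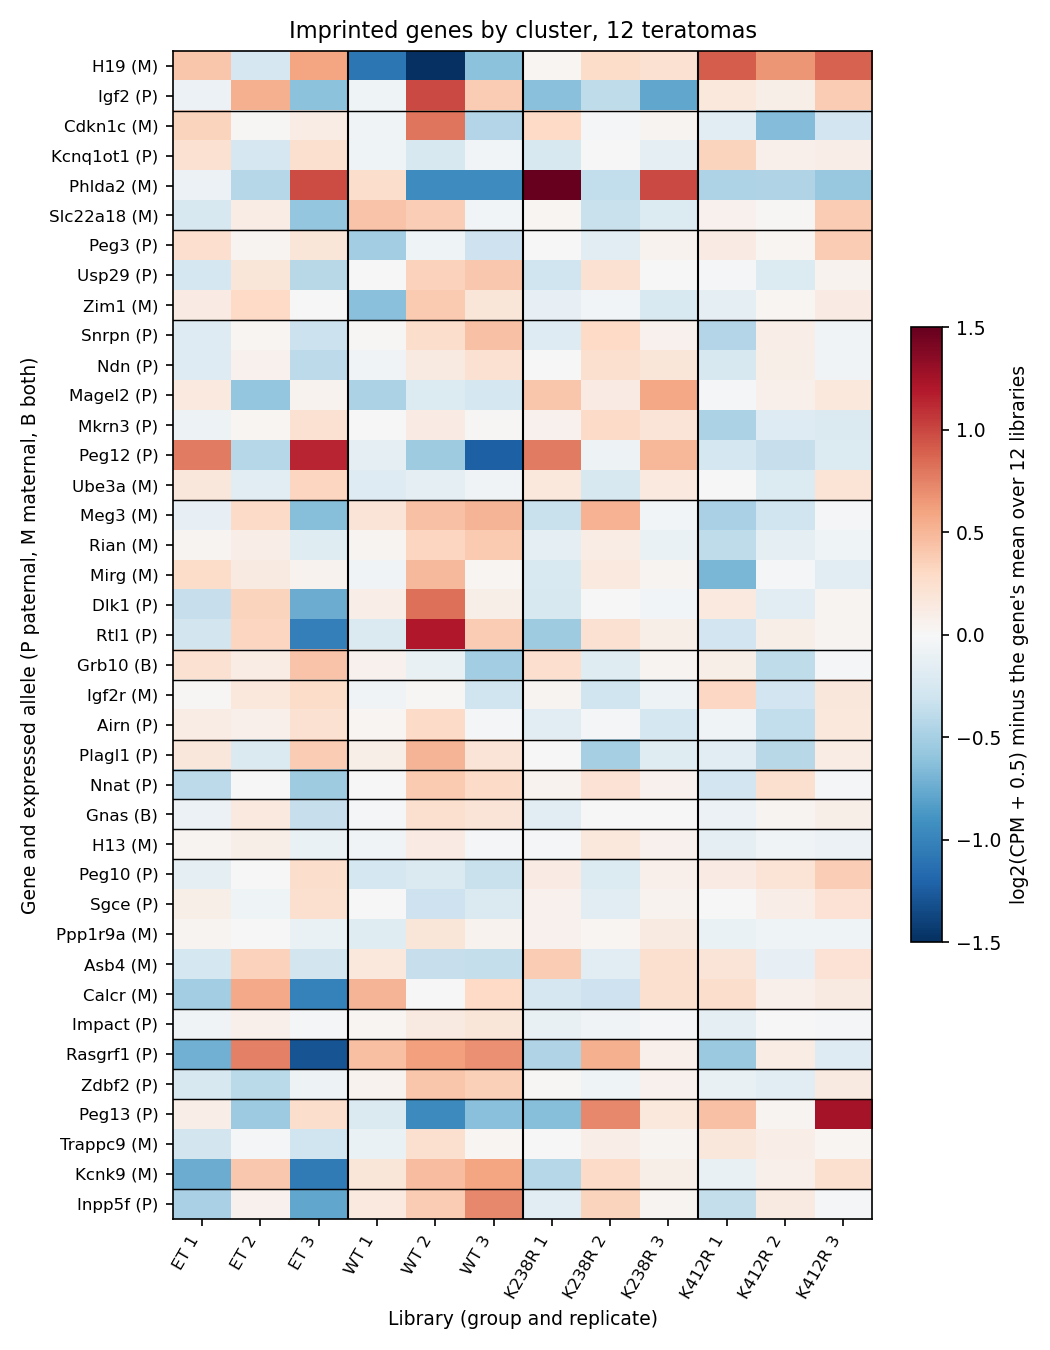
Level of the 39 imprinted genes in 12 teratoma libraries, as log2(CPM + 0.5) minus the gene's mean over the libraries, with the colour scale ending at 1.5 in either direction. Rows are ordered by imprinted cluster, and P, M and B mark the paternally expressed genes, the maternally expressed ones and those expressed from both alleles by tissue or transcript; H19 is lowest in the 3 WT libraries and highest in the 3 K412R libraries.

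The Igf2-H19 domain held the member whose variance lay most between the groups, with 82.0% for H19. H19, a long noncoding RNA made from the maternal copy, stood at 278, 175 and 315 CPM (ET), 97.98, 50.1 and 136 (WT), 213, 253 and 245 (labelled K238R) and 392, 332 and 384 (K412R). The 3 WT libraries lay below the other 9, and the 3 K412R libraries lay above them. H19 was 3.84-fold higher in K412R than in the WT tumours (log2 fold change 1.94 ± 0.31, adjusted p = 0.0151). WT lay below ET (log2 fold change -1.41 ± 0.31, adjusted p = 0.0972) and the K238R-labelled tumours above WT (log2 fold change 1.28 ± 0.30, adjusted p = 0.0999), neither passing the adjusted threshold. K412R and the K238R-labelled tumours lay at 0.53 and -0.13 on the log2 scale against ET, with adjusted p of 0.683 and 0.912. Dnmt3l itself was called lower in K412R than in WT (edgeR log2 fold change -2.49 ± 0.50, adjusted p = 0.0367). In that comparison the level of the Dnmt3l transcript and the mutation therefore cannot be told apart.

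The call of H19 in K412R against WT was lost without K412R replicate 1 (adjusted p = 0.0726) and without K412R replicate 3 (adjusted p = 0.06095), and held in the other 10 fits that left out a library. Its log2 fold change over all alternatives was between 1.63 and 2.33, and its adjusted p between 3.97e-08 and 0.0726. The lower level in WT than in ET passed the threshold without ET replicate 2 (adjusted p = 0.00778), without WT replicate 1 (0.0466) and with DESeq2 (0.000628), and its log2 fold change lay between -1.79 and -1.10.

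Igf2, the fetal growth factor made from the paternal copy, was far more abundant, at 1365, 2101 and 945 CPM (ET), 1388, 2883 and 1876 (WT), 939, 1108 and 844 (labelled K238R) and 1617, 1535 and 1885 (K412R). The libraries labelled K238R were low, with no overlap with WT or K412R, while the ET libraries spread from the level of K238R to that of WT. Igf2 was 2.19-fold lower in the libraries labelled K238R than in the WT tumours (log2 fold change -1.13 ± 0.29, adjusted p = 0.106), and the other differences from WT were smaller (0.51 for WT against ET and -0.31 for K412R against WT, with adjusted p of 0.242 and 0.526). Without ET replicate 2, Igf2 was called higher in WT than in ET (log2 fold change 0.87 ± 0.28, adjusted p = 0.03697). Igf2os runs antisense to Igf2, and as the use of strand in counting is not stated, reads of the pair cannot be told apart.

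Set against each other within a library, the counts of H19 per count of Igf2 were 0.204, 0.0832 and 0.334 (ET), 0.0706, 0.0174 and 0.0724 (WT), 0.226, 0.228 and 0.291 (labelled K238R) and 0.243, 0.216 and 0.204 (K412R). All 3 WT libraries lay below the other 9, with ET replicate 2 next to them at 0.0832. The mean log2 of this ratio was -4.49 ± 1.18 (SD, n = 3) in WT, -2.49 ± 1.02 in ET, -2.18 ± 0.13 in K412R and -2.02 ± 0.21 in the K238R-labelled tumours. WT replicate 2 had the least H19 and the most Igf2 of all libraries, and it also held the largest sums of skeletal muscle and of mesenchyme and cartilage markers. A part of these cells in the levels of H19 and Igf2 was not tested.

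**Figure D2:**
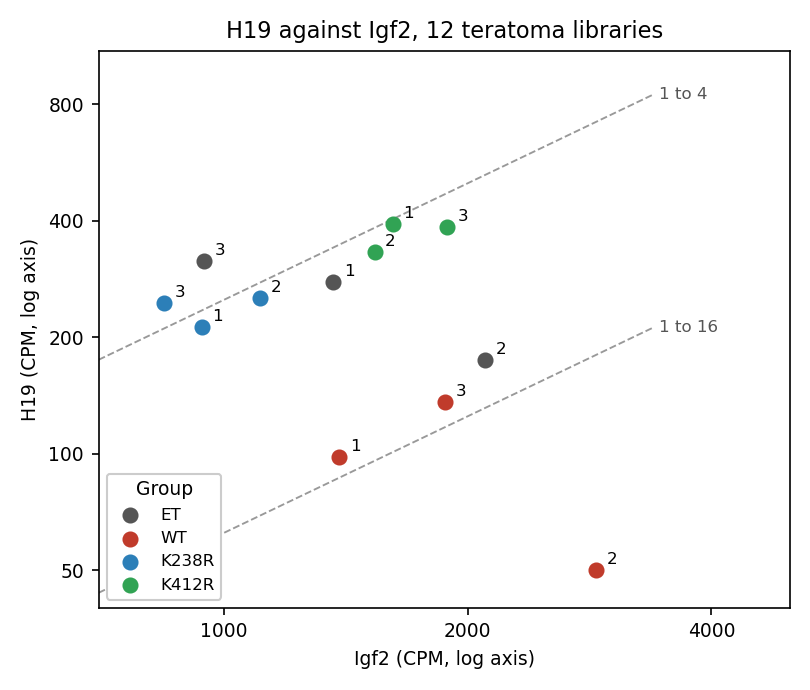
H19 against Igf2 in the 12 libraries, both as CPM on log axes, with the replicate number beside each point and dashed lines where H19 is at 1 count per 4 and per 16 counts of Igf2. The 3 WT libraries hold less H19 per Igf2 than any other library, with ratios of 0.0174 to 0.0724, and the 3 K412R libraries lie close together, at 0.204 to 0.243.

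In the Kcnq1 domain, next to Igf2 on chromosome 7, no member was called. Cdkn1c, an inhibitor of cyclin-dependent kinases made from the maternal copy, stood at 91.3, 73.5 and 78.2 CPM (ET), 69.5, 127 and 53.2 (WT), 89.4, 71.5 and 74.8 (labelled K238R) and 64.7, 46.02 and 59.2 (K412R). The K412R libraries were below all ET and all K238R-labelled libraries, and the WT libraries spread across the others (log2 fold change -0.57 ± 0.25, adjusted p = 0.205 for K412R against WT). Kcnq1ot1, the paternal noncoding RNA that silences its neighbours on the same chromosome, stood at 176, 126 and 176 CPM (ET), 143, 127 and 146 (WT), 127, 151 and 135 (labelled K238R) and 188, 157 and 160.4 (K412R). The K412R libraries lay above the WT and K238R-labelled ones (log2 fold change 0.27 ± 0.14, adjusted p = 0.285 against WT), and Kcnq1ot1 runs antisense to Kcnq1.

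Phlda2, a growth-restraining gene of the placenta, was near the limit of counting, with 9, 5 and 29 counts (ET), 14, 1 and 1 (WT), 72, 6 and 30 (labelled K238R) and 5, 5 and 4 (K412R). Its log2 fold change in the libraries labelled K238R against WT was 2.64 (standard error 0.98, adjusted p = 0.2098), and replicate 1 held most of the counts of that group. It was 1.65 without that library and 4.88 without WT replicate 1, the extremes of the 12 fits without a library, none of which called it. K412R lay at -2.83 against the libraries labelled K238R (adjusted p = 0.286). K238R replicate 1 also had the largest sum of trophoblast markers, 23.3 CPM, against 0.613 to 7.01 CPM in the other 11. Their part in the result was not tested. Slc22a18, a solute transporter, was also low, between 0.389 and 1.29 CPM in all 12 libraries, with a log2 fold change of 0.78 in WT against ET (adjusted p = 0.181).

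In the Peg3 domain no member was called with all 12 libraries. Peg3, a paternally expressed zinc finger protein, stood at 1279, 1102 and 1215 CPM (ET), 750.3, 1023 and 864 (WT), 1082, 959 and 1109 (labelled K238R) and 1168, 1099 and 1394 (K412R). All WT libraries were below all ET and all K412R libraries, while those labelled K238R overlapped both sides. WT lay below ET (log2 fold change -0.42 ± 0.13, adjusted p = 0.1102) and K412R above WT (log2 fold change 0.45 ± 0.13, adjusted p = 0.0781). Usp29, a ubiquitin-specific protease that starts beside Peg3, stood at 82.1, 112 and 74.2 CPM (ET), 98.9, 125 and 131 (WT), 79.9, 116 and 98.6 (labelled K238R) and 97.3, 85.7 and 102 (K412R). Its groups overlapped, with WT the highest in mean (log2 fold change 0.44 ± 0.18, adjusted p = 0.141 for WT against ET). The counts of Peg3 per count of Usp29 were 6.59 to 8.17 in WT, 9.84 to 16.4 in ET, 12.00 to 13.6 in K412R and 8.29 to 13.5 in the K238R-labelled tumours, with WT below the others without overlap. Zim3 runs antisense to Usp29. Zim1, the maternally expressed zinc finger gene of the domain, stood at 53.4, 60.3 and 48.9 CPM (ET), 31.4, 64.1 and 55.5 (WT), 44.8, 47.7 and 41.8 (labelled K238R) and 44.6, 49.8 and 53.5 (K412R). Only the libraries labelled K238R and ET did not overlap, with a log2 fold change of -0.29 (adjusted p = 0.806).

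The Prader-Willi domain, also on chromosome 7, is named after the human syndrome caused by loss of its paternal expression. Snrpn, which makes a spliceosomal protein of neurons, stood at 141, 164 and 128 CPM (ET), 162, 193 and 218 (WT), 141, 197 and 167 (labelled K238R) and 118, 172 and 155 (K412R). The WT libraries were the highest in mean, and they overlapped those of each other group (log2 fold change 0.44 ± 0.18, adjusted p = 0.1399 for WT against ET). Ndn, necdin of postmitotic neurons, stood at 272, 328 and 237.6 CPM (ET), 300.4, 344 and 366 (WT), 315, 368 and 356 (labelled K238R) and 265, 331 and 301 (K412R). No pair of groups separated (log2 fold change 0.30 ± 0.14, adjusted p = 0.173 for WT against ET). Magel2, related to Ndn, stood at 63.4, 38.2 and 59.2 CPM (ET), 40.98, 49.7 and 47.5 (WT), 76.7, 62.2 and 85.5 (labelled K238R) and 55.8, 60.2 and 63.9 (K412R). The WT libraries lay below all K238R-labelled and all K412R libraries (log2 fold change 0.65 ± 0.17, adjusted p = 0.111 for K238R-labelled against WT), and in both its log2 fold change against WT had the opposite sign to that of Snrpn. Snurf shares the strand of Snrpn, and Gm32061 overlaps Ndn, Magel2 and Mkrn3, so their counts are uncertain to that extent.

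Peg12, a Gsk3 inhibitor related to the FRAT proteins, met the study's criterion of a 2-fold change and an unadjusted edgeR p under 0.05. It stood at 15.2, 6.31 and 19.6 CPM (ET), 7.81, 5.798 and 3.42 (WT), 15.3, 8.17 and 12.4 (labelled K238R) and 7.13, 6.73 and 7.47 (K412R). ET replicates 1 and 3 were high and ET replicate 2 lay within the range of WT. Peg12 was 2.39-fold lower in WT than in ET (log2 fold change -1.26 ± 0.38, adjusted p = 0.1103) and 2.05-fold higher in the libraries labelled K238R than in the WT tumours (log2 fold change 1.03 ± 0.38, adjusted p = 0.209), where the libraries did not overlap. Without ET replicate 2, Peg12 was called lower in WT (log2 fold change -1.60 ± 0.29, adjusted p = 0.005500). Mkrn3, a ubiquitin ligase, averaged 10.5 ± 1.197 CPM (ET), 10.4 ± 0.507 (WT), 11.5 ± 0.966 (labelled K238R) and 8.12 ± 0.9100 (K412R) (SD, n = 3), and every K412R library lay below the other 9 (log2 fold change -0.38 ± 0.14, adjusted p = 0.156 against WT). Ube3a, a ubiquitin ligase whose paternal copy is silent in neurons, ranged from 99.8 to 147 CPM with all groups overlapping, and it is overlapped antisense by Snhg14.

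The 5 genes of the Dlk1-Dio3 domain on chromosome 12 shared their signs: all 5 had a positive log2 fold change in WT against ET and a negative one against WT in the K238R-labelled and the K412R tumours, and none was called. Meg3, the maternal long noncoding RNA of the domain, stood at 2604, 3465 and 1817 CPM (ET), 3238, 3839 and 4035 (WT), 2253, 4091 and 2767 (labelled K238R) and 2024, 2318 and 2799.8 (K412R). Every WT library lay above every K412R library (log2 fold change -0.66 ± 0.25, adjusted p = 0.148), and K238R replicate 2 was the highest of all 12. Rian, the maternal host RNA of small nucleolar RNAs, stood at 645, 669.9 and 552 CPM (ET), 643, 781 and 820.2 (WT), 572, 675 and 584 (labelled K238R) and 483, 569.8 and 598 (K412R). The K412R libraries were again below all WT libraries (log2 fold change -0.47 ± 0.13, adjusted p = 0.0784), and the ET libraries overlapped those of WT (log2 fold change 0.30 ± 0.13, adjusted p = 0.159). Mirg, the maternal host of a microRNA cluster, stood at 20.8, 18.8 and 17.7 CPM (ET), 16.4, 24.1 and 17.4 (WT), 14.6, 19.1 and 17.6 (labelled K238R) and 10.5, 16.8 and 15.2 (K412R). Its K412R libraries lay below all ET libraries and overlapped WT (log2 fold change -0.47 ± 0.20, adjusted p = 0.184 against WT).

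Dlk1, the paternal membrane protein of the Notch ligand type, stood at 103, 166 and 78.6 CPM (ET), 142, 233 and 140.4 (WT), 111, 131 and 129 (labelled K238R) and 146, 119 and 136 (K412R). WT replicate 2 was the highest, and every WT library lay above those labelled K238R (log2 fold change -0.52 ± 0.25, adjusted p = 0.303). Rtl1, a paternal gene derived from a retrotransposon, stood at 17.5, 26.7 and 10.2 CPM (ET), 18.3, 49.6 and 27.8 (WT), 14.6, 25.1 and 22.7 (labelled K238R) and 17.4, 22.8 and 21.9 (K412R). WT replicate 2 was high here too, and the groups overlapped (log2 fold change 0.85 ± 0.38, adjusted p = 0.164 for WT against ET). Without ET replicate 2, Dlk1, Meg3 and Rtl1 were called higher in WT than in ET, and over all alternatives to the fit their log2 fold changes lay between 0.31 and 0.95, 0.33 and 0.78, and 0.38 and 1.24. That of Mirg was 0.04 and changed sign without WT replicate 2, to -0.15.

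**Figure D3:**
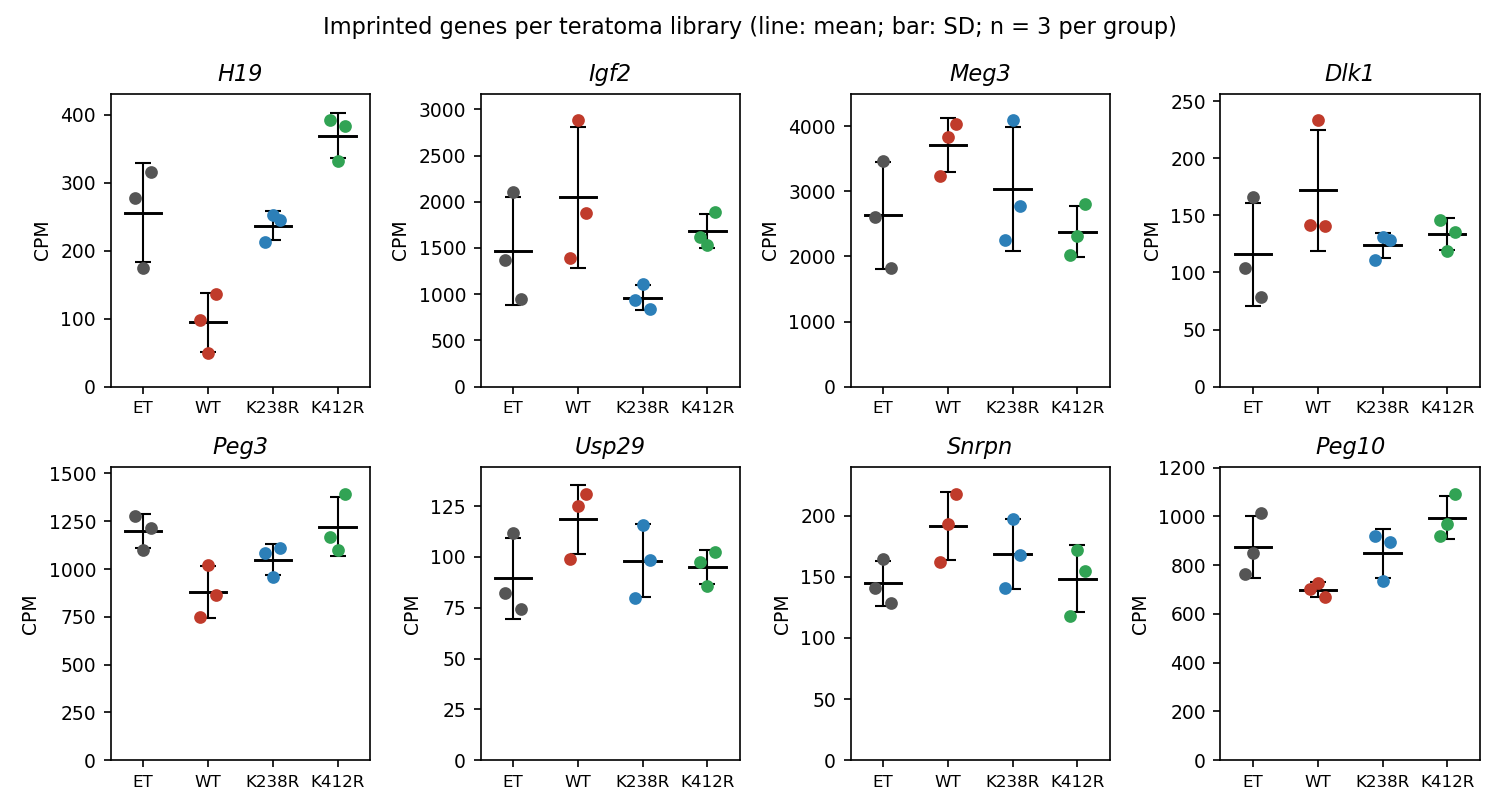
CPM of 8 imprinted genes in each teratoma library, with the group mean as a line and the SD as a bar (n = 3 per group) and each y axis starting at 0. H19 in WT lies between 50.1 and 136 CPM, below the 9 other libraries, Peg10 in WT lies between 667 and 727 CPM, and Meg3 in WT lies above all K412R libraries.

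The domain around Peg10 on chromosome 6 holds paternal and maternal genes. Peg10, a retrotransposon-derived gene needed for the placenta, stood at 762, 848 and 1013 CPM (ET), 702, 727 and 667 (WT), 921, 735 and 894 (labelled K238R) and 921, 971 and 1093 (K412R). The WT libraries lay close together and below the other 9. Peg10 was lower in WT than in ET (log2 fold change -0.30 ± 0.12, adjusted p = 0.139) and higher in K412R than in the WT tumours (log2 fold change 0.49 ± 0.12, adjusted p = 0.06098), short of the adjusted threshold in both. Sgce, epsilon-sarcoglycan, which starts beside Peg10 and is paternal too, averaged 38.8 ± 4.12 CPM (ET), 32.4 ± 3.68 (WT), 36.2 ± 3.34 (labelled K238R) and 39.5 ± 2.98 (K412R) (SD, n = 3). All K412R libraries lay above all WT libraries (log2 fold change 0.27 ± 0.11, adjusted p = 0.181). With all 12 libraries none of the 3 maternal members of the domain was called. The log2 fold changes of Ppp1r9a, Asb4 and Calcr were 0.07, -0.10 and 0.49 in WT against ET, 0.00, 0.29 and -0.42 in K238R-labelled against WT, and -0.12, 0.25 and -0.14 in K412R against WT. Calcr, the calcitonin receptor, was 34.7 CPM in ET replicate 2 against 15.98 and 11.2 for the remaining ET libraries, and without that library it was called higher in WT (log2 fold change 1.09 ± 0.20, adjusted p = 0.00573) and in K412R (log2 fold change 0.97 ± 0.20, adjusted p = 0.04200) than in ET.

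Grb10, an adaptor that binds the insulin receptor and is maternal in most tissues and paternal in neurons, stood at 419, 385 and 480.0 CPM (ET), 373, 331 and 248 (WT), 423, 315 and 366 (labelled K238R) and 378, 273 and 353 (K412R). The ET libraries lay above all WT and all K412R libraries (log2 fold change -0.41 ± 0.16, adjusted p = 0.135 for WT against ET). Igf2r, the maternal receptor that takes up and clears Igf2, stood at 126, 139 and 152 CPM (ET), 121, 127 and 101.3 (WT), 129, 101.4 and 118 (labelled K238R) and 155, 102 and 141 (K412R). Its groups overlapped in every pair (log2 fold change -0.24 ± 0.15, adjusted p = 0.287 for WT against ET). Airn, the paternal antisense RNA that silences Igf2r, was low, at 4.38, 4.25 and 4.78 CPM (ET), 4.104, 5.02 and 3.94 (WT), 3.505, 3.94 and 3.26 (labelled K238R) and 3.84, 2.997 and 4.55 (K412R). The ET libraries lay above those labelled K238R, with a log2 fold change of -0.34 (adjusted p = 0.806). Airn and Igf2r overlap on opposite strands, and 1 count of Airn stood against 25.2 or more of Igf2r in every library.

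Plagl1, a zinc finger transcription factor of the paternal copy, stood at 157, 119.9 and 183 CPM (ET), 149, 199.8 and 160.2 (WT), 141, 99.2 and 123 (labelled K238R) and 125, 105 and 152 (K412R). The libraries labelled K238R lay below all WT libraries (log2 fold change -0.54 ± 0.18, adjusted p = 0.182), and K412R overlapped WT. Nnat, neuronatin, a paternal membrane protein of neurons, stood at 1075, 1407 and 969 CPM (ET), 1402, 1842 and 1719 (WT), 1455, 1634 and 1472 (labelled K238R) and 1155, 1664 and 1392 (K412R). WT and K238R-labelled libraries were high and 2 of the 3 ET libraries were low (log2 fold change 0.56 ± 0.17, adjusted p = 0.1103 for WT against ET), and Blcap runs antisense to Nnat. Gnas, which makes the stimulatory G protein subunit and further products from either copy, ranged from 948 to 1433 CPM, and H13, a signal peptide peptidase, from 117 to 144 CPM. Neither passed an unadjusted p under 0.05 in WT against ET, K238R-labelled against WT or K412R against WT.

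Of the genes that lie alone, Inpp5f, an inositol phosphatase with an imprinted short isoform, and Zdbf2, a zinc finger protein, were higher in every WT library than in every ET library. Inpp5f averaged 213 ± 65.2 CPM (ET), 369 ± 75.4 (WT), 289 ± 50.96 (labelled K238R) and 260.1 ± 44.4 (K412R) (SD, n = 3; log2 fold change 0.83 ± 0.23, adjusted p = 0.105 for WT against ET). The counts cover the whole gene and do not separate the imprinted isoform. Zdbf2 averaged 208 ± 23.5 CPM (ET), 299 ± 39.1 (WT), 246 ± 11.3 (labelled K238R) and 237.7 ± 26.2 (K412R) (SD, n = 3; log2 fold change 0.55 ± 0.12, adjusted p = 0.1002 for WT against ET). In K412R against WT its log2 fold change was -0.35 (adjusted p = 0.126), while the median of the 1012 genes tested on chromosome 1, where it lies, was -0.19. The median of these genes in WT against ET was 0.10. Rasgrf1, an exchange factor for Ras in neurons, ranged from 54.1 to 63.8 CPM in WT and from 26.8 to 42.7 in K412R (log2 fold change -0.80 ± 0.43, adjusted p = 0.2895), and ET replicate 2, at 67.2 CPM, stood far above the remaining ET values of 23.8 and 15.8. In WT against ET its log2 fold change was 0.78 (adjusted p = 0.239) with that library and 1.63 (adjusted p = 0.00682) without it. Impact, a regulator of the kinase Gcn2, stayed between 109 and 137 CPM. In CPM every WT library lay above every K238R-labelled and every K412R library, by a small step. Its log2 fold changes were -0.22 for K238R-labelled and -0.19 for K412R against WT.

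Peg13, a paternal noncoding RNA that lies within Trappc9 on chromosome 15, was the other gene past the 2-fold criterion in K412R against WT. It stood at 6.42, 3.95 and 7.28 CPM (ET), 5.06, 2.84 and 3.71 (WT), 3.67, 10.2 and 6.73 (labelled K238R) and 8.301, 6.16 and 14.9 (K412R). The K412R libraries lay above all WT libraries, and replicate 3 was the highest (log2 fold change 1.31 ± 0.41, adjusted p = 0.1001). The median log2 fold change of the 678 genes tested on chromosome 15 in the same comparison was 0.29, against 0.01 over all genes, and the part of the chromosome in the difference was not tested. Peg13 shares its strand with Trappc9, and at 2.84 to 14.9 CPM against 57.1 to 83.1 CPM for Trappc9 its counts are uncertain. Trappc9, a subunit of a vesicle-tethering complex, averaged 61.2 ± 6.38 CPM (ET), 73.3 ± 9.02 (WT), 72.6 ± 2.53 (labelled K238R) and 75.3 ± 3.69 (K412R) (SD, n = 3). The ET libraries were below all K238R-labelled and all K412R libraries, with log2 fold changes of 0.23 and 0.31 for K238R-labelled and K412R against ET, beside medians of -0.06 and 0.17 for chromosome 15. Kcnk9, a potassium channel, was 263 CPM in ET replicate 2 against 118 and 94.96 for the remaining ET libraries. In WT against ET its log2 fold change was 0.78 ± 0.32 (adjusted p = 0.1402), beside a median of -0.12 for chromosome 15. Without ET replicate 2, Kcnk9 was called higher in WT (log2 fold change 1.35 ± 0.21, adjusted p = 0.00388) and in K412R (log2 fold change 0.99 ± 0.21, adjusted p = 0.0435) than in ET.

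**Figure D4:**
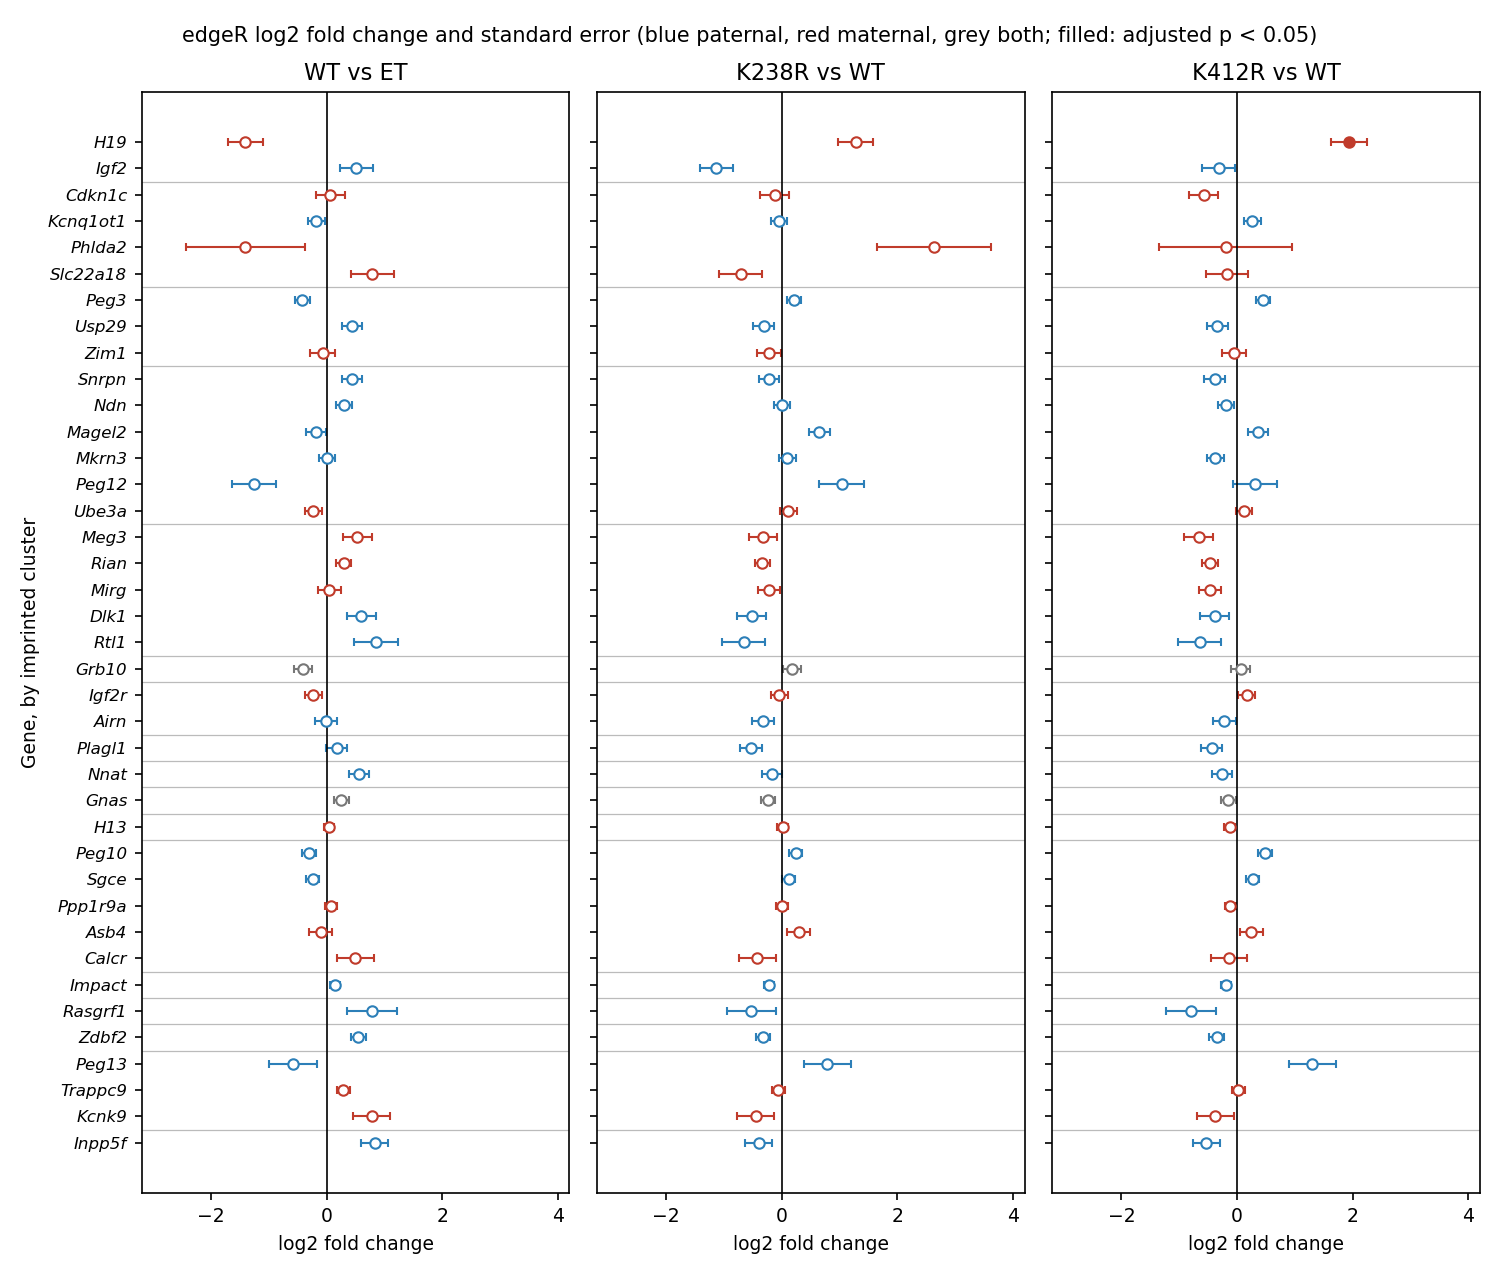
edgeR log2 fold change with its standard error for the 39 genes in WT against ET, in the libraries labelled K238R against WT and in K412R against WT, coloured by the expressed allele. The filled symbol marks the only value past the adjusted threshold, H19 in K412R against WT at 1.94, and the widest bars belong to Phlda2.

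The study's criterion of a 2-fold change and an unadjusted p under 0.05 was applied to edgeR's test, while the study's methods name DESeq2. By it, 2 members passed in WT against ET (H19 and Peg12, both lower, background 6.02%, of it 2.76% lower). In the libraries labelled K238R against WT there were 4 (H19, Peg12 and Phlda2 higher, Igf2 lower, background 5.23%, of it 1.67% higher and 3.55% lower), and in K412R against WT 2 (H19 and Peg13 higher, background 5.02%, of it 1.66% higher). Libraries did not overlap for 8 members in K238R-labelled against WT (background 24%): H19, Magel2, Peg10 and Peg12 were higher (12.7% of all genes) and Dlk1, Igf2, Impact and Plagl1 lower (11.3%). In K412R against WT they did not overlap for 14 members (background 31.1%, with 14.4% higher and 16.6% lower), 7 higher (H19, Kcnq1ot1, Magel2, Peg10, Peg13, Peg3 and Sgce) and 7 lower (H13, Impact, Inpp5f, Meg3, Mkrn3, Rasgrf1 and Rian). These comparisons share the 3 WT libraries. For H13 the gap was narrow, since the highest K412R and the lowest WT library were both at 125 CPM to 3 digits. The total behind CPM includes Gm26917, the most abundant RNA, which ranged from 74672 to 139083 CPM. Small gaps, such as those of H13, Impact and Inpp5f, depend on its share too, and overlap without it was not tested.

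In the libraries labelled K238R against ET, edgeR's test called no member and no gene at all (background 0%), DESeq2 called no member (background 0.029%), and 2 members, Magel2 and Nnat, had an unadjusted p under 0.05 (background 5.61%). Libraries did not overlap for 5 members (background 9.18%, with 4.93% higher and 4.24% lower): Nnat, Trappc9 and Zdbf2 were higher and Airn and Zim1 lower. In K412R against ET no member was called by edgeR (background 0%) or by DESeq2 (background 0.473%), and Trappc9, Peg12 and Mkrn3 had an unadjusted p under 0.05 (background 7.91%). Libraries did not overlap there for 7 members (background 10.8%, with 5.01% higher and 5.74% lower), H19 and Trappc9 higher and Cdkn1c, Grb10, Mirg, Mkrn3 and Phlda2 lower.

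Between K412R and the libraries labelled K238R no member was called by edgeR (background 0.0217%) or by DESeq2 (background 2%). An unadjusted p under 0.05 was found for 5 members (background 11.9%), with Kcnq1ot1, H19 and Igf2 higher in K412R and Phlda2 and Mkrn3 lower. H19 and Igf2 were both higher in K412R, by 0.66 and 0.82 on the log2 scale, without overlap of the libraries. Their adjusted p was 0.414 and 0.284 with all 12 libraries in the fit, and both passed when these 2 groups were fitted alone (adjusted p = 0.0403 for H19 and 0.0403 for Igf2). Libraries did not overlap for 10 members (background 19%), of which H19, Igf2, Kcnq1ot1 and Peg10 were higher in K412R (8.75% of all genes) and Cdkn1c, H13, Mkrn3, Peg12, Phlda2 and Ppp1r9a lower (10.2%). For Peg10 the nearest libraries of the groups were both at 921 CPM to 3 digits.

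The paternal and the maternal genes were also taken as groups. In WT against ET the median log2 fold change came to 0.17 over the 21 paternal genes and 0.06 over the 16 maternal ones, against -0.01 over all 18405 genes tested. In the libraries labelled K238R against WT the medians were -0.22 and -0.09 (all genes 0.00), and in K412R against WT -0.26 and -0.13 (all genes 0.01). In WT against ET 13 of 21 paternal and 10 of 16 maternal genes were higher, in K238R-labelled against WT 7 and 6 were, and in K412R against WT 7 and 5. In K412R against ET 15 of 21 paternal genes were higher (median 0.10) and 6 of 16 maternal ones (median -0.08), against a median of -0.02 over all genes. Over the 39 genes, WT had the highest of the 4 group means for 17 genes and the lowest for 11 (43.6% and 28.2%), against 31.2% and 39.5% of all genes. The typical spread within a group, a median SD of 0.240 on the log2 scale, was near that of all genes tested (0.225), and differences between groups made up a median of 44.7% of a member's variance, against 41.6% over all genes.

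Neighbours within a domain were compared across the 12 libraries for 14 pairs chosen by position or shared regulation, with log2(CPM + 0.5), 100000 resamples and adjustment over the 14. Snrpn and Ndn varied together, with r = 0.88 (permutation p = 0.0001800, adjusted p = 0.00126), rho = 0.92 (permutation p = 0.0001200, adjusted p = 0.0008400), and r = 0.87 without the 2 libraries farthest from the median of Snrpn. Meg3 and Rian did so too, with r = 0.88 (permutation p = 1.00e-04, adjusted p = 0.00126), rho = 0.92 (permutation p = 4.00e-05, adjusted p = 0.0005600), and r = 0.94 without 2 libraries. With each group centred at 0 and values exchanged only within groups, these were the 2 pairs that passed, at r = 0.92 and 0.85 (exact permutation p = 0.000772 for both, the smallest these exchanges can give, adjusted p = 0.0054).

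Peg10 and Sgce, which share a start region, gave r = 0.81 (permutation p = 0.00149, adjusted p = 0.00521), rho = 0.84 (permutation p = 0.00124, adjusted p = 0.00579). Without 2 libraries r was 0.70, and within groups it was 0.64 (exact permutation, adjusted p = 0.162). Igf2 and Dlk1, growth genes on different chromosomes, gave r = 0.77 (permutation p = 0.00298, adjusted p = 0.00834), rho = 0.77 (permutation p = 0.00511, adjusted p = 0.0179), r = 0.75 without 2 libraries and r = 0.90 within groups (exact permutation, adjusted p = 0.0972). Dlk1 and Rtl1 gave r = 0.89 (permutation p = 0.0008400, adjusted p = 0.00392), rho = 0.62 (permutation p = 0.0378, adjusted p = 0.106), and Dlk1 and Meg3 gave r = 0.66 (permutation p = 0.01497, adjusted p = 0.0349), rho = 0.55 (permutation p = 0.0661, adjusted p = 0.154). Without 2 libraries these were r = 0.53 and 0.41, so their size depended on those libraries. Within groups they were r = 0.84 and 0.61 (exact permutation, adjusted p = 0.0972 and 0.170). The remaining 8 pairs did not pass, among them Igf2 and H19, with r = -0.49 (permutation p = 0.108, adjusted p = 0.168), rho = -0.17 (permutation p = 0.586, adjusted p = 0.684), and r = -0.10 without 2 libraries, and Peg3 and Usp29, with r = -0.46 (permutation p = 0.137, adjusted p = 0.191), rho = -0.51 (permutation p = 0.0947, adjusted p = 0.189), and r = -0.44. Within groups, Igf2 and H19 gave r = -0.71 and Peg3 and Usp29 r = 0.04 (exact permutation, adjusted p = 0.234 and 0.907). The points share a tumour's mix of cells, whose part in these relations was not tested.

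The proteins that keep imprints in place were read as a list of 14 genes, among them Zfp57, Trim28, Dnmt1, Uhrf1 and Dppa3. No gene of the list was called in any of the 6 comparisons. In WT against ET 13 of the 14 were lower, with a median log2 fold change of -0.35, in K238R-labelled against WT 13 were higher (0.24) and in K412R against WT 12 were (0.22), while the medians of all genes were within 0.02 of 0. Zfp57, which reads the hexamer shown above, lay at -0.00, 0.10 and -0.28 in these comparisons (adjusted p = 0.975, 0.5100 and 0.0816). The 7 pluripotency markers had medians of -2.06, 1.09 and 1.19, with 7 lower, 7 higher and 6 higher, and their part in the values of the list was not tested. Of 29 further imprinted genes, with Mest among them, 27 were tested. Mest fell in K412R (log2 fold change -2.34 ± 0.28, adjusted p = 0.00497 against WT) and was the only one of them called in a comparison of groups, and the median of the 27 was -0.05 in WT against ET and 0.01 in K412R against WT.

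In whole tumours, fewer cells of a type and less RNA per cell cannot be told apart, so the summed CPM of marker lists is given. The 12 neuronal markers summed to 3606 to 3901 CPM (ET), 3684 to 4919.9 (WT), 4059.6 to 4935 (labelled K238R) and 2856 to 3422 (K412R), so the K412R libraries lay below all others. The 12 skeletal muscle markers summed to 291 to 831 CPM (ET), 566 to 4658 (WT), 48.2 to 1252 (labelled K238R) and 443 to 529 (K412R). The 10 markers of mesenchyme and cartilage summed to 1522 to 4255 CPM (ET), 3129.6 to 5144 (WT), 1264 to 1958 (labelled K238R) and 1887 to 2929 (K412R). Igf2 was lowest in K238R replicate 3, the library with the lowest muscle sum, and highest in WT replicate 2, the library with the highest sums of muscle and mesenchyme markers. Between these extremes the order of the muscle sum differed from that of Igf2. The K412R libraries, with muscle sums of 443 to 529 CPM, held Igf2 at 1535 to 1885 CPM. K238R replicate 2, with a muscle sum of 1252 CPM, held it at 1108 CPM. By replicate, the mesenchyme and cartilage sums were 2602, 4255 and 1522 CPM (ET), 3130, 5144 and 3317 (WT), 1264, 1958 and 1287 (labelled K238R) and 2326, 1887 and 2929 (K412R). Igf2 in the same order was 1365, 2101 and 945 CPM, 1388, 2883 and 1876, 939, 1108 and 844, and 1617, 1535 and 1885. A relation of this sum to Igf2 was not tested. The 7 pluripotency markers summed to 62.1 to 138 CPM (ET), 7.07 to 59.3 (WT), 31.2 to 62.4 (labelled K238R) and 41.9 to 53.9 (K412R). The 8 neural progenitor markers were between 713 and 963 CPM in all libraries, the 6 endothelial ones between 138 and 243, the 10 of liver and yolk sac endoderm between 46.9 and 123, and the 8 of trophoblast between 0.613 and 23.3. Alb, Gcm1 and Matn1 had at most 10 counts in every library. Of these lists, Prrx1 of mesenchyme was called lower in K412R than in the WT tumours (log2 fold change -0.78 ± 0.17, adjusted p = 0.04195) and Prl3b1 of trophoblast higher (log2 fold change 4.51 ± 1.01, adjusted p = 0.0454), and no other marker was called in any of the 6 comparisons. The part of these cells in the levels of the imprinted genes was not tested.

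**Figure D5:**
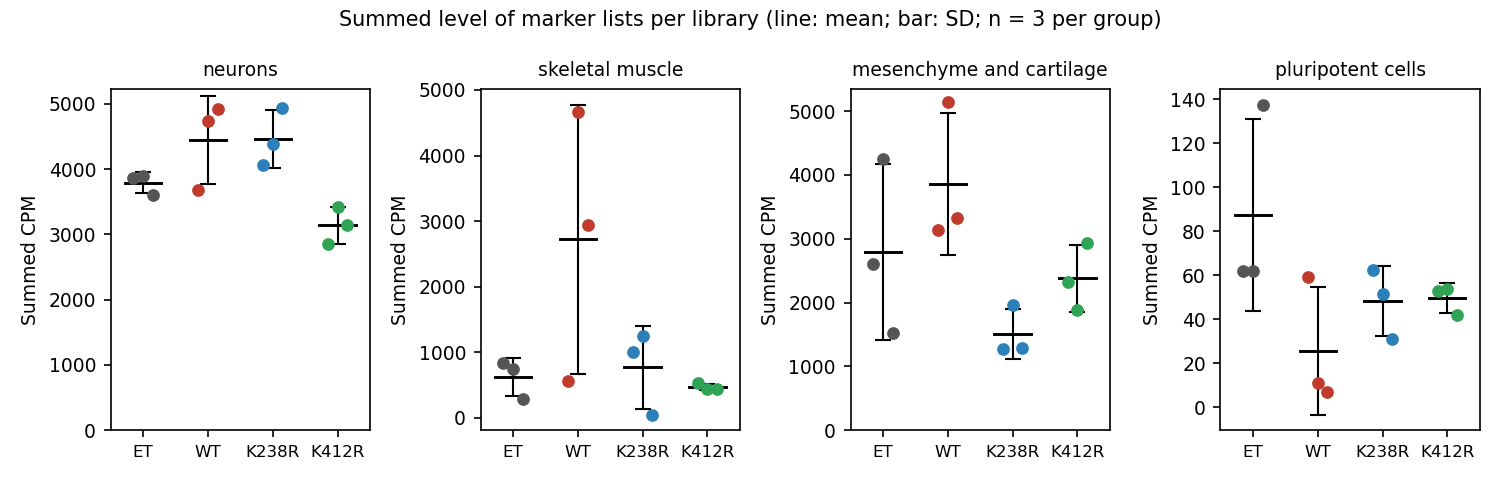
Summed CPM of 4 marker lists in each library, with the group mean as a line and the SD as a bar (n = 3 per group). The neuronal sum of every K412R library lies below that of every other library, and the muscle sum ranges from 48.2 to 4658 CPM, with the highest value in WT replicate 2.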

How the data were processed

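Teratoma RNA was sequenced as 12 libraries, 3 in each of the groups ET, WT, K238R and K412R, grouped by sample title. The libraries were made with the CORALL kit. The submitters' processing notes name fastp, STAR, Salmon, GATK and the build GRCm39. The authors deposited Salmon's estimated counts per gene symbol, not normalized, as whole numbers, so no rounding was needed. Molecular identifiers and strand use in counting are not given in the sources used here. All 12 files were used, and 0 value columns were left unmapped.

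The members and lists were chosen with earlier results of these data known. CPM was the count divided by the library total. edgeR 4.0.16 in R 4.3.3 (TMM, filterByExpr, robust quasi-likelihood test) was fitted to 18405 genes with 1 mean per group, and p-values were Benjamini-Hochberg adjusted. The study's methods name DESeq2, run here as an alternative (1.42.0). On counts simulated for WT against ET over 18172 genes, with 200 changed 4-fold, 184 were recovered with 9 false calls. Smaller changes and a library apart from its group were not simulated, so this recovery does not bear on them. Standard errors came from the fold change and its F statistic. Correlations used a pseudocount of 0.5 CPM. Values in every library are given for 20 members, chiefly the leading genes of each cluster, and for any other past the adjusted threshold or the 2-fold criterion, and the rest are given by means, ranges and counts. Chromosomes and overlapping genes came from GENCODE M21 on GRCm38, another build than the files', so no gene coordinates are given other than those of the RefSeq sequences. Alternatives were DESeq2's size factors and test, no filter, the groups compared alone, the replicate number as a block, Gm26917 (the most abundant RNA) left out, each library left out in turn and, chosen after seeing the data, edgeR without robust estimation.

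Replicate numbers were not taken to pair the libraries. Deviations from the group means of the 18 pairs of equal number correlated at -0.33 to 0.48 (median 0.10), and 9 of the 18 pairs were above 0.1. The 36 pairs of different number correlated at -0.53 to 0.47 (median -0.07), and 8 of them were above 0.1. Whether equal numbers mark a shared origin was not tested.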

Additional observations from a re-analysis of the deposited data

How the results depend on the processing

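With DESeq2's test the members called numbered 6 in WT against ET (H19, Inpp5f, Nnat, Peg12, Peg3 and Zdbf2, of 38 with an adjusted p), 3 in K238R-labelled against WT (H19, Igf2 and Magel2), 5 in K412R against WT (H19, Peg10, Peg13, Peg3 and Rian) and 8 over all groups, where it called 11.5%, 4.1%, 9.1% and 10.6% of all genes. With the replicate number as a block they numbered 4 (H19, Inpp5f, Nnat and Zdbf2), 1 (H19), 3 (H19, Peg10 and Rian) and 1 (H19), where 5.03%, 1.1%, 6.15% and 1.41% of all genes were called. The numbers were not taken to pair the libraries, though 6 of 12 libraries correlated best with a library of their own number. Fitted with the groups compared alone, 6 were called in K412R against WT (H19, Meg3, Peg10, Peg13, Rasgrf1 and Rian, with 10.6% of all genes) and 2 in K412R against K238R-labelled (H19 and Igf2, with 0.374%).

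Over the 12 fits without 1 library, the members called ranged from 0 to 18 in WT against ET, 0 to 3 in K238R-labelled against WT and in K412R against WT, 0 to 2 in K412R against ET and 0 to 11 over all groups, each highest without ET replicate 2 (in K412R against WT also without WT replicate 1, with 2 without ET replicate 3 and 0 without K412R replicates 1 or 3). The members called were 0 to 0 in the other 2 comparisons. Without ET replicate 2 the shares of all genes called were 30.8% in WT against ET and 4.32% in K238R-labelled against WT. They were 8.13% in K412R against WT, 1.51% in K412R against ET and 18.7% over all groups. Without WT replicate 1 the share in K412R against WT was 5.37%, and without ET replicate 3 it was 3.58%. The 2-fold criterion was met by 1 to 8 members in WT against ET (1 without ET replicate 3, 4 without WT replicate 1, 8 without ET replicate 2), 1 to 4 in K238R-labelled against WT (1 without WT replicate 2, 2 without WT replicate 3) and 1 to 2 in K412R against WT (1 without K412R replicate 3). The share of all genes past the 2-fold criterion was not counted in these fits, so these counts cannot be read as a result about the imprinted genes. The correlated pairs numbered 4 to 6, and 2 with values centred within groups. Of 234 values of members in 6 comparisons, none called changed sign, 62 not called changed sign under some alternative, and 32 not called passed the threshold under some alternative. DESeq2's size factors, the missing filter, Gm26917 left out and the fit without robust estimation each left the counts of members called as reported. The cause of these differences was not tested.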
